A study of Mus musculus with 4 samples.

Results

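The myosin light chains of quadriceps and the kinases that phosphorylate them were followed in mice that carry transgenes for both NF90 and NF45 (NF90-NF45 dbTg, below dbTg) and in wild-type mice (WT). The 9 genes are 4 essential light chains (Myl1, Myl3, Myl4 and Myl6b), 2 regulatory light chains (Mylpf and Myl2) and 3 myosin light chain kinases (Mylk2, Mylk and Mylk4), chosen by symbol out of 22180 genes named on the array. Each of the 9 had 1 probe set assigned to it alone, and all 9 passed the intensity filter that left 13308 genes for testing. Total RNA of quadriceps was hybridised to whole-transcript arrays, 1 array per mouse, with 2 dbTg and 2 WT mice. In each group replicate 1 was male and replicate 2 female. Both dbTg mice and WT replicate 2 were 16 weeks old, and WT replicate 1 was 17 to 18 weeks old. The sources used here do not give the promoter that drives the transgenes or the number of founder lines. The labels give no treatment.

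Muscle myosin is a hexamer in which each heavy chain carries an essential and a regulatory light chain on its lever arm. The essential light chain stiffens the lever arm, and the regulatory light chain can be phosphorylated near its start by a kinase that calcium-loaded calmodulin switches on, which increases force at submaximal calcium in fast muscle. Adult fast fibres use Myl1 with Mylpf, slow fibres use Myl3 with Myl2, and Myl4 belongs to embryonic skeletal muscle and the atria. A phosphatase with a myosin-targeting subunit removes the phosphate again.

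Levels are log2 RMA values, in which RMA stands for robust multi-array average. A gene counts as called where limma's p-value, adjusted by Benjamini-Hochberg over all 13308 tested genes, is below 0.05. Differences are dbTg minus WT, so a positive difference means higher in dbTg. An exact permutation test of 2 arrays against 2 cannot give a p-value below 0.333, so the tests lean on a spread shared across genes. Array medians over all probe sets lay between 1.55 and 1.60. The upper quartile was 2.99 and 2.98 in dbTg, against 2.80 and 2.78 in WT. The highest value of any probe set was 11.99 and 11.92 in dbTg, against 12.31 and 12.36 in WT, so the spread of values differed by genotype. No call of presence accompanies the values, so a dim probe set may read background. Ilf2, which encodes NF45, read 10.36 and 10.16 in dbTg, against 5.03 and 5.04 in WT, which checks the NF45 part of the label and not the NF90 part. Of the 9 skeletal muscle fibre markers, such as Ckm, Acta1 and Ttn, all were tested and 0 were called in limma (with an unadjusted p under 0.05, 1 higher and 2 lower). Their summed level was 13.23 to 13.32 in dbTg and 13.37 to 13.38 in WT on the log2 scale.

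Of the 9 light chain and kinase genes, Myl4 rose and Mylk2 fell in dbTg quadriceps, and the other 7 were not called. Over all tested genes 2.21% were called, 2.01% higher and 0.203% lower in dbTg. With an unadjusted p under 0.05, 1 of the 9 was higher and 2 were lower, where 18.7% of all tested genes passed, 14% higher and 4.64% lower. The arrays of dbTg and WT did not overlap for 4 of the 9 genes (Myl1 and Myl4 higher, Mylk2 and Mylk4 lower), where 50% of all tested genes did not overlap, 33.7% higher and 16.3% lower. The median difference of the 9 was -0.0088, against 0.089 over all tested genes. Of the 9 differences 4 were positive and 5 negative.

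**Figure D1:**
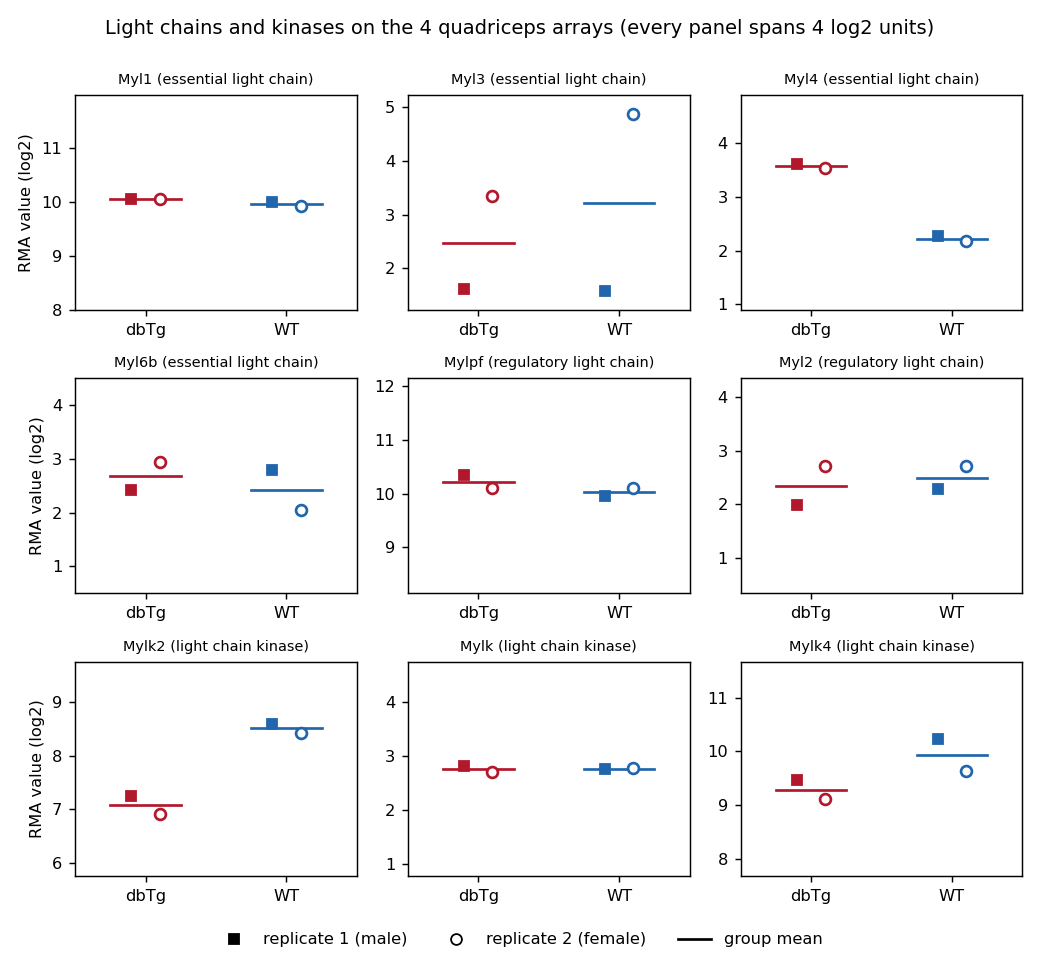
RMA values (log2) of the 9 genes on each array, with dbTg on the left and WT on the right of every panel; squares are the male and open circles the female mice, and lines are group means. Myl4 is higher on both dbTg arrays, Mylk2 lower, and Myl3 is spread over more than 3 log2 units, with both female arrays above both male arrays.

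Among the essential light chains, Myl4, the chain of embryonic skeletal muscle and of the atria (probe set 17257221), was the gene that rose. It read 3.61 and 3.55 in dbTg, against 2.27 and 2.18 in WT. Both dbTg arrays stood above both WT arrays, and the arrays of a group lay within 0.1 of each other. Group means were 3.58 ± 0.05 in dbTg and 2.22 ± 0.06 in WT (SD, n = 2 each), a 2.56-fold difference (log2 difference 1.36, SE 0.21, 95% interval 0.86 to 1.85, limma adjusted p = 0.0333). The male pair differed by 1.34 and the female pair by 1.37. The difference ranked 268 from the top among the 13308 tested genes. Its call was lost after quantile normalization (1.19, adjusted p = 0.0635), with the replicate number, which is also the sex, as a block (adjusted p = 0.0904), and when either dbTg array was left out (1.32 with an adjusted p of 0.242 without dbTg replicate 1, 1.39 with 0.304 without dbTg replicate 2).

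Markers of macrophages and leukocytes were higher beside Myl4. Of 10 tested markers 6 were called higher and 0 lower in limma, where 2.01% of all tested genes were called higher. The median difference was 1.85, and all 10 differences were positive. The listed markers Cd3e and Cd79a lay under the intensity filter and were not tested. This list was chosen with earlier results of these arrays known, so its count is not independent evidence of a direction. The summed level of the 12 listed markers was 9.01 to 9.21 in dbTg and 6.45 to 6.52 in WT on the log2 scale, and their part in the Myl4 result was not tested. With either dbTg array left out, most calls of these markers were lost, as were most calls over all tested genes. Of 5 tested markers of the heart chambers, where Myl4 is also used, all had positive differences. For 4 of them the groups did not overlap, where 33.7% of all tested genes were higher without overlap. The listed markers Myh6 and Tbx5 lay under the intensity filter and overlapped (log2 differences 0.04 and -0.06). In limma 2 of the 5 tested markers were higher with an unadjusted p under 0.05, where 14% of all tested genes were. Of the 5, 1 was called, Sln, the inhibitor of the calcium pump (log2 difference 4.87, SE 0.63, adjusted p = 0.0213). Sln is also a gene of skeletal muscle. No heart chamber marker was called with robust eBayes. The call of Sln was also lost with either dbTg array left out, as were most calls over all tested genes. Without WT replicate 2, calls rose in this list and over all tested genes. The natriuretic peptide gene Nppb read 3.50 and 2.53 in dbTg, against 1.39 and 1.55 in WT (log2 difference 1.54, SE 0.33, limma adjusted p = 0.072). Its WT mean of 1.47 lay under the filter at 1.48, so Nppb was tested only through its dbTg values. The part of these markers in the Myl4 result was not tested. The atrial hormone gene Nppa read 2.20 and 1.94 in dbTg, against 1.63 and 1.64 in WT, and was not called (log2 difference 0.44, SE 0.20, limma adjusted p = 0.295). The atrial regulatory light chain Myl7, the usual partner of Myl4 in the heart, lay under the intensity filter, at 1.15 and 0.99 in dbTg and 1.06 and 1.51 in WT.

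Genes of embryonic and regenerating fibres rose beside Myl4, in a list that holds contractile genes and others. Contractile genes were among both those called and those not called. Of 10 tested genes in this list, 7 were called higher and 0 lower, with a median difference of 2.48, where 2.01% of all tested genes were called higher. That list was assembled with earlier results of these arrays known, so its count is not independent evidence of a direction. Ankrd1, a stress-responsive protein of the sarcomere, read 9.76 and 10.02 in dbTg, against 5.29 and 5.26 in WT (log2 difference 4.61, SE 0.15, limma adjusted p = 0.000119). Ncam1, the neural cell adhesion molecule, was 8.01-fold higher (adjusted p = 0.00309). Tnnt2, the cardiac and embryonic troponin T, differed by 2.45 (SE 0.18, adjusted p = 0.00309). Myh3, the embryonic myosin heavy chain, read 5.41 and 5.52 in dbTg, against 1.82 and 1.06 in WT (log2 difference 4.03, SE 0.29, adjusted p = 0.00309). The WT mean of Myh3, 1.44, lay under the filter at 1.48, so it was tested only through its dbTg values.  Without dbTg replicate 1 or without dbTg replicate 2, most calls in this list were lost, as were most calls over all tested genes.

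The promoter window of Myl4 is shown because it belongs to the light chain that rose. RefSeq windows of 300 bases on GRCm38.p6, running from 250 bases before the start site to 50 after it, were found for 8 of the 9 genes, with 9 windows in all. Mylk2 was the remaining gene. Each window was searched on both strands for the E-box (CANNTG), bound by myogenic basic helix-loop-helix factors, and for the MEF2 site and the CArG box, bound by MEF2 and serum response factor. The E-box reads the same on both strands, and no matches overlapped in the windows shown. The Myl4 window, chr11:104550413-104550712 on the plus strand, held 0 matches and therefore has no capitals.
Myl4: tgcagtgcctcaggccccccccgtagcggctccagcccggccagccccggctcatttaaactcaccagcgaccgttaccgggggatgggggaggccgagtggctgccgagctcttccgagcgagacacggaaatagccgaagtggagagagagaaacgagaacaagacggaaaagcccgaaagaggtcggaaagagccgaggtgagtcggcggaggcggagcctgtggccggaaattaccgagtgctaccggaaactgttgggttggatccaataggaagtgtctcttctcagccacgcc
At least 1 E-box was present in 72.3% of the 32851 RefSeq windows of this length, a MEF2 site in 3.19% and a CArG box in 1.63%. No match says only that these letters are not in this window.

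Myl1, the fast essential light chain (probe set 17223916), differed little between genotypes. It read 10.06 and 10.06 in dbTg, against 10.01 and 9.92 in WT. The groups did not overlap, yet the gap was small: the log2 difference was 0.09 (SE 0.11, 95% interval -0.17 to 0.36, limma adjusted p = 0.711). The interval leaves out a change above 0.36 in either direction. Myl1 makes a long and a short chain from separate promoters, and a single probe set does not separate them. Taken within each array, Myl4 minus Myl1 lay 1.29 and 1.23 above the WT mean in dbTg, while the WT arrays lay within 0.001 of it. Because Myl1 varied little, this restates the difference of Myl4.

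Myl6b, an essential light chain of slow and non-muscle myosins (probe set 17246154), read 2.42 and 2.94 in dbTg, against 2.80 and 2.06 in WT. The groups overlapped (log2 difference 0.26, SE 0.32, 95% interval -0.51 to 1.02, adjusted p = 0.727). Myl6, the non-muscle essential chain, is its neighbour in the RefSeq gene table. It read 2.56 and 1.59 in dbTg, against 2.73 and 2.04 in WT, and was not called either (log2 difference -0.31, SE 0.38, adjusted p = 0.719).

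Myl3, the essential light chain of slow fibres and the ventricle (probe set 17522439), varied between mice of a group more than between genotypes. It read 1.61 and 3.34 in dbTg, against 1.58 and 4.87 in WT. The 2 male arrays were within 0.04 of each other, and both female arrays were higher. The log2 difference was -0.75 with an SE of 1.03 (95% interval -3.21 to 1.72, limma adjusted p = 0.756), the widest interval of the 9 genes. Leaving out WT replicate 1 gave a called difference of -2.39 (adjusted p = 0.0477), and leaving out WT replicate 2 gave 0.90.

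Its promoter window is shown because Myl3 varied most over the 4 arrays and because it was the single window of the 9 with a CArG box. The window is chr9:110763428-110763727 on the plus strand, and capitals mark the E-box, which begins 189 bases before the start site, and the CArG box, which begins 85 bases before it.
Myl3: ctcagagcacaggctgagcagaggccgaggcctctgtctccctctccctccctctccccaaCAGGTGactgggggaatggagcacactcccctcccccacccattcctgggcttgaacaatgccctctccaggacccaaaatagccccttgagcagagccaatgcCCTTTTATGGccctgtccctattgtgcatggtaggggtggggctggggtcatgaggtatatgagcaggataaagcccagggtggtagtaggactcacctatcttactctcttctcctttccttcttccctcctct
A match is a description of the sequence and not a bound site.

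Myl2, the slow and ventricular regulatory light chain (probe set 17442010), had the same order of arrays within each group. It read 1.98 and 2.70 in dbTg, against 2.28 and 2.71 in WT. The groups overlapped and the gene was not called (log2 difference -0.15, SE 0.31, 95% interval -0.89 to 0.58, adjusted p = 0.838). The 2 slow light chains read higher in the female than in the male mouse of both groups. The female minus male difference of Myl3 was 1.73 in dbTg and 3.29 in WT, and that of Myl2 was 0.73 and 0.43. With 1 mouse of each sex in a group, sex and the single animal cannot be told apart. In WT the male was also older, at 17 to 18 weeks against 16 weeks, so age cannot be told apart there either.

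The slow contractile genes showed this order as a list. All 11 tested slow fibre genes were higher in the female than in the male array of both groups, where 23.5% of the 13308 tested genes were. Their median female minus male difference was 0.86 in dbTg and 2.54 in WT, against -0.013 and -0.0070 over all tested genes. Myh7, the slow myosin heavy chain, read 5.33 in the female and 1.62 in the male dbTg mouse, and 6.29 in the female and 2.30 in the male WT mouse. Tnnc1, the slow and cardiac troponin C, read 5.41 in the female and 3.14 in the male dbTg mouse, and 6.54 in the female and 2.19 in the male WT mouse. Neither gene differed by genotype beyond this spread (Myh7 log2 difference -0.82, SE 1.49; Tnnc1 -0.09, SE 1.35; limma adjusted p = 0.823 and 0.982). Fewer slow fibres and less slow fibre RNA per fibre cannot be told apart in bulk muscle. The list was read after these values were seen, so its order is a description with no test.

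By genotype, 0 of the 11 slow fibre genes were called in limma (with an unadjusted p under 0.05, 2 higher and 1 lower), with a median difference of 0.20. Myh7b, a slow-type myosin heavy chain gene, differed by -0.88 (SE 0.25, adjusted p = 0.135), and Casq2, the calsequestrin of slow and cardiac muscle, by 1.73 (SE 0.63, adjusted p = 0.206). Leaving out either WT array gave calls in this list, and more calls over all tested genes too.

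**Figure D2:**
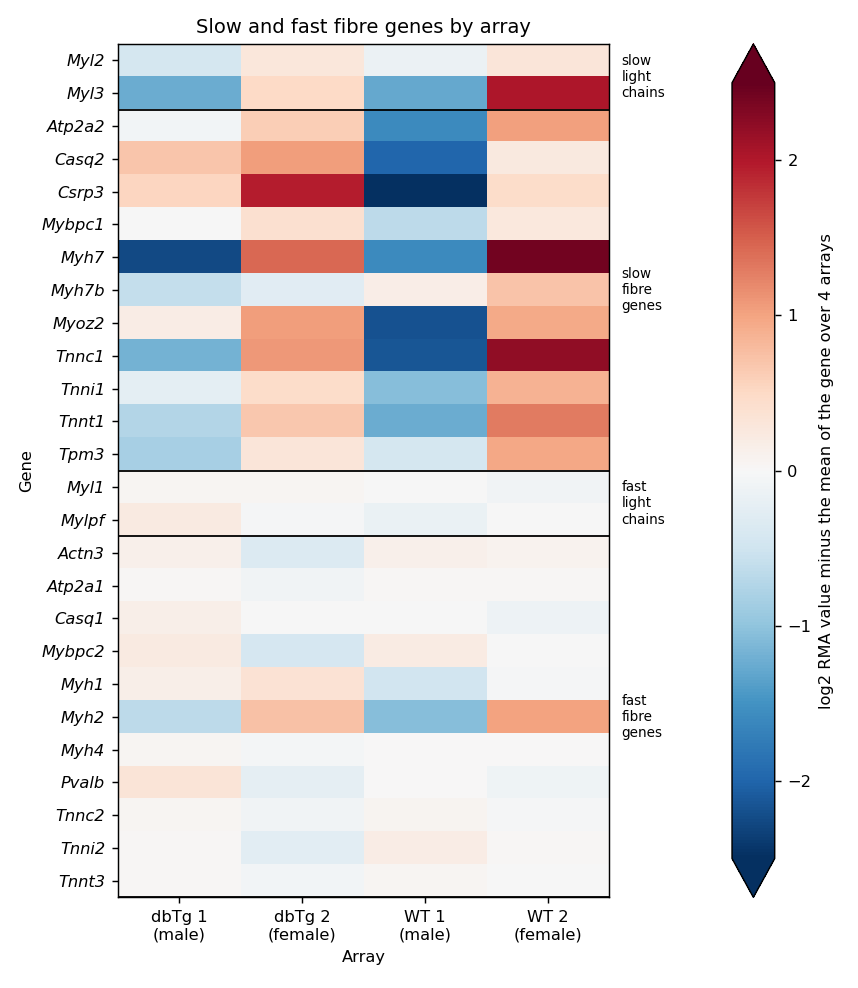
Slow and fast fibre genes and light chains on each array, as log2 RMA value minus the mean of the gene over the 4 arrays (red above, blue below). In the slow blocks both female arrays are above the male array of their group for all 11 slow fibre genes and for Myl2 and Myl3, and the fast rows other than Myh2 are pale.

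Mylpf, the fast regulatory light chain and main substrate of the skeletal muscle kinase (probe set 17483242), did not separate the genotypes. It read 10.34 and 10.10 in dbTg, against 9.95 and 10.11 in WT. The groups overlapped (log2 difference 0.19, SE 0.13, 95% interval -0.13 to 0.51, limma adjusted p = 0.500). Of 11 tested fast fibre genes beside the light chains, 0 were called in limma (with an unadjusted p under 0.05, 1 higher and 0 lower), with a median difference of -0.039. Myh1, the fast 2X heavy chain, differed by 0.51 (SE 0.18, adjusted p = 0.191), and Tnni2, the fast troponin I, by -0.23 (SE 0.15, adjusted p = 0.465). As the mean of Myl2 and Myl3 minus the mean of Myl1 and Mylpf within an array, the balance of slow over fast light chains stood at -1.27 and 0.085 in dbTg and at -0.91 and 0.91 in WT, relative to the WT mean. The groups overlapped in this balance.

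Among the kinases, Mylk2, the calcium and calmodulin dependent kinase of skeletal muscle (probe set 17377816), fell in dbTg. It read 7.25 and 6.91 in dbTg, against 8.59 and 8.43 in WT. Both dbTg arrays were more than 1 log2 unit below both WT arrays. Means were 7.08 ± 0.24 in dbTg and 8.51 ± 0.12 in WT (SD, n = 2 each), which makes WT 2.70-fold higher (log2 difference -1.43, SE 0.17, 95% interval -1.83 to -1.04, limma adjusted p = 0.0152). The male pair differed by -1.35 and the female pair by -1.52. It was the lowest difference but 7 of the 13308 tested genes. The call was lost when either dbTg array was left out (-1.60 with an adjusted p of 0.0799 without dbTg replicate 1, -1.26 with 0.151 without dbTg replicate 2).

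Mylk2 moved apart from its substrate. Mylk2 minus Mylpf, taken within each array and relative to the WT mean, was -1.58 and -1.67 in dbTg and 0.16 and -0.16 in WT, with no overlap. Because Mylpf varied little, this restates the difference of Mylk2 and adds no separate result. None of the fibre markers was called, and their part in the Mylk2 result was not tested. Of the 9 markers 7 had negative differences, 5 of them with groups that did not overlap, where 16.3% of all tested genes were lower without overlap. Des and Acta1 had positive differences and did not overlap either, where 33.7% of all tested genes were higher without overlap. The brightest markers carry the summed level given above. Of the 9 markers, Ryr1, the calcium release channel, read 8.89 and 8.41 in dbTg, against 9.51 and 9.54 in WT, and lay just outside the threshold (log2 difference -0.88, SE 0.18, limma adjusted p = 0.0597). With the filter at the 60th percentile 1 fibre marker was called. Cacna1s, the voltage sensor coupled to Ryr1, differed by -0.54 (SE 0.16, adjusted p = 0.148). The neighbours of Mylk2 in the RefSeq gene table, looked up after its value was seen, were not called. The spindle protein gene Tpx2 differed by 0.05 (SE 0.22, adjusted p = 0.934) and the forkhead gene Foxs1 by -0.21 (SE 0.23, adjusted p = 0.673).

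Mylk4, a further member of the same kinase family (probe set 17291674), lay lower in dbTg but did not pass the test. It read 9.46 and 9.11 in dbTg, against 10.23 and 9.63 in WT. Both dbTg arrays were below both WT arrays, with a gap of less than the distance between the WT arrays. The log2 difference was -0.65 (SE 0.22, 95% interval -1.17 to -0.12, adjusted p = 0.184). Leaving out WT replicate 2 gave a called difference of -0.95 (adjusted p = 0.0309), and leaving out WT replicate 1 gave -0.34. Mylk4 minus Mylk2 within an array, relative to the WT mean, was 0.80 and 0.78 in dbTg and 0.22 and -0.22 in WT, and the groups did not overlap in it. Because Mylk2 differed by more than Mylk4, this largely restates the difference of Mylk2 and adds no separate result for Mylk4.

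The Mylk4 window is shown because it was the single window of the 9 with a MEF2 site and the one with the most E-boxes. It is chr13:32783915-32784214, on the minus strand. Capitals mark the MEF2 site, which begins 103 bases before the start site, and 4 E-boxes, which begin 83, 64 and 8 bases before it and 27 bases after it.
Mylk4: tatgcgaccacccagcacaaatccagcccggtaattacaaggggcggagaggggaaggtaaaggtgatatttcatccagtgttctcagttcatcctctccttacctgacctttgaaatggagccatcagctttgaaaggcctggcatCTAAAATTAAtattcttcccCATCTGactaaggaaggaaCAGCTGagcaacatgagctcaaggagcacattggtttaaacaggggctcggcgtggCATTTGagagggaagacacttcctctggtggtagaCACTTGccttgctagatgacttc
At least 4 E-boxes were present in 6.49% of the RefSeq windows.

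Mylk, the kinase of smooth muscle and non-muscle cells (probe set 17325159), had close values in both groups. It read 2.81 and 2.71 in dbTg, against 2.77 and 2.77 in WT. The groups overlapped (log2 difference -0.0088, SE 0.21, 95% interval -0.51 to 0.49, adjusted p = 0.989). The gene also makes telokin, a short protein without kinase activity, and the probe set does not separate the products. Of 11 tested smooth muscle and pericyte markers, 0 were called in limma (with an unadjusted p under 0.05, 1 higher and 3 lower), with a median difference of -0.12. Of the 11 differences 5 were positive and 6 negative. The summed level of all 12 listed markers was 9.25 to 9.39 in dbTg and 9.66 to 9.68 in WT. The brightest markers, among them Abcc9 below, carry this sum. Abcc9, a potassium channel subunit, differed by -0.51 (SE 0.15, adjusted p = 0.136), and Acta2, the smooth muscle actin, by 0.91 (SE 0.28, adjusted p = 0.153). Without WT replicate 1, calls rose over all tested genes and also in the smooth muscle and endothelial lists. Endothelial markers, a non-muscle source of Mylk, had 8 of 8 negative differences with 0 called in limma (with an unadjusted p under 0.05, 0 higher and 5 lower). Over all tested genes 14% were higher and 4.64% lower at that p. Of the 5, Cldn5 had a dbTg mean of 1.44, under the filter at 1.48, so it was tested only through its WT values. The summed level of the 8 endothelial markers was 7.46 to 7.77 in dbTg and 8.26 to 8.39 in WT, and their part in the Mylk value was not tested. The junction cadherin gene Cdh5 differed by -0.85 (SE 0.21, adjusted p = 0.0929), and Kdr, a receptor of vascular endothelial growth factor, by -0.85 (SE 0.29, adjusted p = 0.184).

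**Figure D3:**
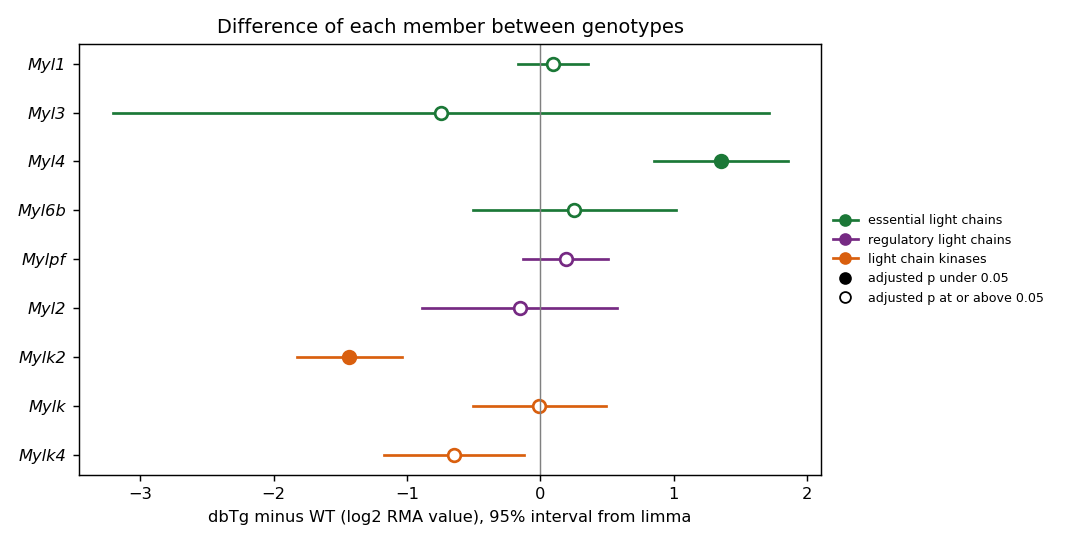
Log2 difference (dbTg minus WT) of each gene with limma's 95% interval; filled points have an adjusted p under 0.05. Myl4 (1.36) and Mylk2 (-1.43) are filled, and Myl3 has the widest interval, -3.21 to 1.72.

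**Figure D4:**
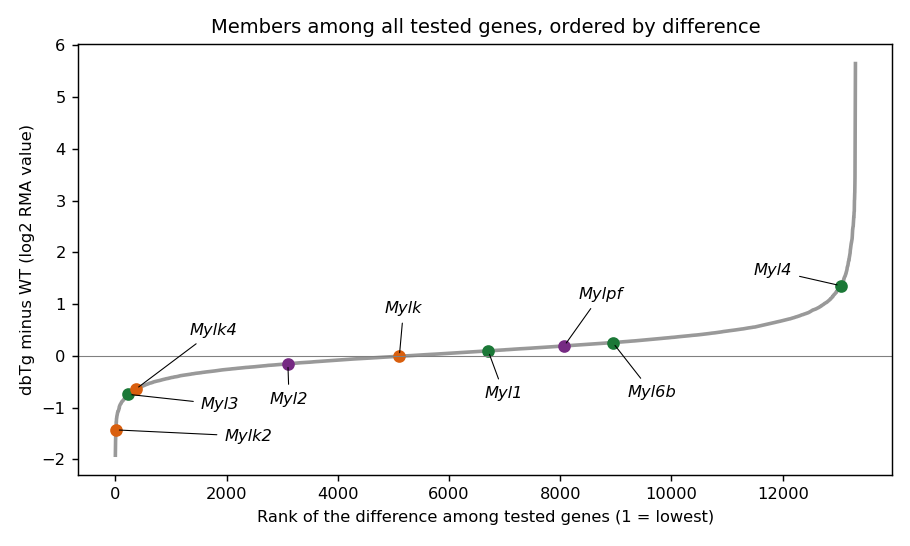
Log2 difference of the 13308 tested genes in rank order (grey curve), with the 9 genes marked. Mylk2 lies at the low end, Myl3 and Mylk4 near it, Myl4 near the high end, and the other 5 along the flat middle.

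Other genes that bear on light chain phosphorylation were not called where they were tested. Of 5 tested other light chains 0 were called in limma (0 with an unadjusted p under 0.05), with a median of 0.18. Myl12a and Myl12b, regulatory chains of non-muscle myosin, differed by 0.77 (SE 0.38, adjusted p = 0.331) and 0.37 (SE 0.20, adjusted p = 0.383). Of 13 listed other kinases and their regulators 8 were tested, all of them kinases, the other 5 were not analysed here, and 0 were called in limma (with an unadjusted p under 0.05, 2 higher and 0 lower), with a median of 0.078. Without WT replicate 2, calls rose over all tested genes and also in this list. Dapk2, a calmodulin-dependent death-associated kinase, read 5.40 and 5.05 in dbTg, against 4.19 and 4.66 in WT (log2 difference 0.80, SE 0.24, adjusted p = 0.140). Rock1, a kinase that acts on the regulatory chain and its phosphatase, read 5.52 and 5.79 in dbTg, against 5.13 and 5.07 in WT (log2 difference 0.55, SE 0.18, adjusted p = 0.171). Mylk3, the cardiac light chain kinase, read 1.45 and 1.26 in dbTg, against 1.52 and 1.77 in WT (log2 difference -0.29, SE 0.19, adjusted p = 0.458), close to the filter at 1.48.

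Of 9 tested genes listed for the myosin phosphatase 0 were called in limma (0 with an unadjusted p under 0.05), with a median of 0.23. The list holds its subunits and inhibitors, and also other catalytic subunits of the same phosphatase family. Ppp1cb, the catalytic subunit of the myosin phosphatase, read 8.32 and 8.40 in dbTg, against 8.50 and 8.62 in WT (log2 difference -0.20, SE 0.13, limma adjusted p = 0.465). Ppp1r12b, the targeting subunit of striated muscle, read 5.77 and 6.20 in dbTg, against 5.78 and 6.15 in WT (log2 difference 0.019, SE 0.22, adjusted p = 0.977). Ppp1r12c and Ppp1r12a, further targeting subunits, had the smallest p-values of the list, with differences of 0.51 (SE 0.25, adjusted p = 0.333) and 0.38 (SE 0.19, adjusted p = 0.345).

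**Figure D5:**
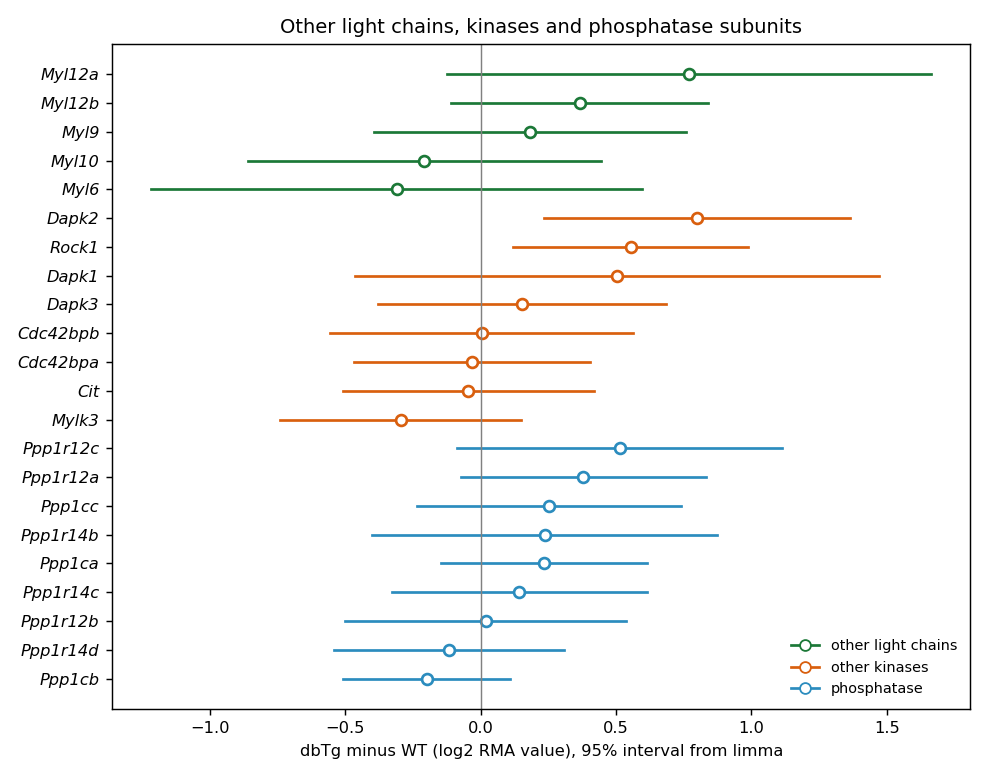
Log2 difference (dbTg minus WT) with limma's 95% interval for the tested other light chains, other kinases and phosphatase genes; none has an adjusted p under 0.05. The intervals of Dapk2 and Rock1 lie above 0, and all others include 0.

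The profiles most like those of the called genes were found by the root mean square distance between mean-centred log2 values over the 4 arrays. For Myl4 the nearest genes were Themis2 (0.034), Galnt7 (0.048), Neurl3 (0.053) and Slc11a1 (0.054), and 28 tested genes lay within 0.1 of it. For Mylk2 the nearest were Npc1 (0.15), Hmga2-ps1 (0.15), Hnmt (0.19) and Eepd1 (0.19), and 0 genes lay within 0.1 of it. Npc1 read 5.31 and 4.87 in dbTg, against 6.65 and 6.13 in WT, and was not called (log2 difference -1.30, limma adjusted p = 0.0526). With 4 arrays a small distance says that 2 genes had like differences between and within groups, and no more.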

How the data were processed

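Total RNA from quadriceps of 2 dbTg and 2 WT mice was measured on Affymetrix whole-transcript arrays. The deposited values are log2 RMA values (RMA-sketch), made by the authors with Affymetrix Expression Console per the labels; the sources used here name neither software version nor annotation build. Of 41345 probe sets, 23521 were paired with 1 gene symbol; 23328 of these matched RefSeq GRCm38.p6 through Entrez identifiers and 0 symbols changed. The brightest probe set by mean over the 4 arrays represented each of 22180 genes. Genes with a mean at or above the 40th percentile (1.48) were tested with limma 3.58.1 in R 4.3.3 (lmFit, eBayes with intensity trend), two-sided, with Benjamini-Hochberg adjustment over 13308 genes and a threshold of 0.05. SDs are over 2 arrays, and the number of arrays limits the precision.

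Named genes were the 9 light chain and kinase genes, Ilf2, up to 4 called genes of each list or, failing these, its 2 genes of smallest p, and the 4 nearest profiles of each called gene, without predicted and microRNA genes. Nppa, Nppb, Myl7, Myl6, Myh7, Tnnc1, Mylk3, Ppp1cb, Ppp1r12b, Cldn5 and the neighbouring genes were added after their values were seen. The genes and lists were chosen with earlier results of these data known. Alternatives were a fit without each array in turn, a block for replicate number, quantile normalization, median centring, no filter, the 60th percentile, the mean of probe sets, and eBayes without trend or robust. Replicate number, which is also the sex, was not in the main fit. Deviations of same-numbered arrays from their group means correlated with r = 0.049 across genes. This value covers all tested genes and does not measure sex differences in single genes. All 11 tested slow fibre genes were higher in the female array of both groups.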

Additional observations from a re-analysis of the deposited data

Results flagged for a closer look

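In 4 of the 9 genes the male pair and the female pair of a dbTg and a WT mouse differed in opposite directions. Myl3 differed by 0.037 in the males and by -1.53 in the females, and Myl6b by -0.37 in the males and by 0.88 in the females. Mylpf differed by 0.39 in the males and by -0.010 in the females, and Mylk by 0.046 in the males and by -0.064 in the females. Each pair holds 1 mouse per genotype, and the difference between the pairs was not tested. None of the 4 genes was called over both pairs.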

How the results depend on the processing

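With 4 arrays every call rests on the spread of single mice, and no presence call bounds the dim probe sets. The directions of Myl1, Myl4, Mylpf, Mylk2 and Mylk4 held under median centring, quantile normalization and the fits without each array in turn. The other alternatives leave the differences of the 9 genes unchanged, so they could not test a direction. When each array was left out in turn, the array left alone in its group being taken to vary as the other group did, the count of called light chain and kinase genes was 0 to 3, that of genes higher in dbTg 4 to 610 and that of genes lower 0 to 156. The 0 counts came without dbTg replicate 1 and without dbTg replicate 2; there, with an unadjusted p under 0.05 in limma, 343 and 247 genes were lower and 3 and 2 of the 9 passed. Leaving out an array gave differences of -1.60 to -1.26 for Mylk2, 1.31 to 1.40 for Myl4, -0.95 to -0.34 for Mylk4, -2.39 to 0.90 for Myl3, -0.52 to 0.21 for Myl2, -0.11 to 0.62 for Myl6b, -0.062 to 0.044 for Mylk, 0.067 to 0.31 for Mylpf and 0.050 to 0.14 for Myl1. With the replicate number as a block, 1 of the 9 genes stayed called (Mylk2, adjusted p = 0.0368), 63 genes were higher and 2 lower, and Myl4 kept its difference of 1.36 with an adjusted p of 0.0904. Quantile normalization gave 120 higher, 7 lower and 1 of the 9 called, with Myl4 at 1.19 (adjusted p = 0.0635); the cause was not tested. Without an intensity filter 165 genes were higher and 7 lower, at the 60th percentile 44 were lower, and without a trend 14 were lower, against 267 and 27 as reported. Median centring turned the difference of Mylk to 0.023. The adjusted p over all alternatives ran from 0.00564 to 0.151 for Mylk2 and from 0.0185 to 0.304 for Myl4.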
